A study of Apis mellifera with 5 samples.

Results

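Worker honey bees (Apis mellifera carnica Pollmann) were compared at days 16 and 6 after emergence, by the RNA of their hypopharyngeal glands (HGs). The members were all unigenes with at least 1 unique read in either library. They numbered 19198 of the 20522 unigenes with a read at any of the 5 ages sequenced (days 3, 6, 9, 12 and 16). The day 6 library held reads of 17785 unigenes and the day 16 library of 17995, and 16582 unigenes had a read in both. A unigene is a cluster of assembled transcript sequences, so several unigenes can belong to 1 gene, and the names given here are mostly best matches in other species.

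The bees of all ages were full sisters from a colony that the study selected, whose queen had been inseminated with the sperm of a single drone, and the labels give no treatment. Each library came from the glands of 30 pooled bees, and there was 1 library per age. Age, pool and library therefore cannot be told apart, and a test on the reads compares these 2 libraries, not the ages. The RNA of the 2 libraries also differed in integrity, a measure of how intact the RNA was. It was the highest of the series at the younger age compared and the lowest at the older. What part RNA integrity has in the ratios was not tested. Glands taken from the head can carry other tissue, and in pooled tissue fewer cells of a type and less RNA per cell cannot be told apart.

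The HGs are paired glands in the head of the worker, built of secretory acini that drain into a long duct. In nurse bees they secrete the major royal jelly proteins, which are fed to larvae and to the queen. As workers turn to foraging the acini shrink, and the glands make enzymes that convert nectar into honey, such as glucose oxidase, alpha-glucosidase and amylase.

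Each unigene had 2 values per library, its count of unique reads and its RPKM (unique reads scaled by unigene length and by library size). The ratio is that of RPKM on day 16 to RPKM on day 6, on a log2 scale, with its 95% exact interval in brackets. Counting error is all that this interval covers. Calls needed a false discovery rate of at most 0.001 in Audic and Claverie's test and a log2 ratio of at least 1 in size. In the text, rose and fell are used of called unigenes alone.

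The primers below were designed by the study and lie in 3 unigenes that stand for the main directions seen here. TC14045 had the lowest called ratio among named unigenes with at least 100 reads, TC12842 is a muscle gene that rose, and TC13222 is a royal jelly gene whose 2 RPKM values lay close together. They are printed from 5′ to 3′ in lower case, and no part is marked.
TC14045 forward: ggtggattaccgacagaaacat
TC14045 reverse: ccaggaacagcaacagcatta
TC12842 forward: tagtcagcgtcatcgttcaa
TC12842 reverse: ctcattctcttgttccttgttgc
TC13222 forward: agattgtgggttttggactcag
TC13222 reverse: cttccctgttctgtggtggtat

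The libraries held 1518649 unique reads on day 6 and 1815654 on day 16. The 10 most read unigenes took 17.95% of the reads on day 6 and 26.3% on day 16. Among 13119 unigenes with at least 10 reads over both libraries the median log2 ratio was -0.33. Trimmed-mean scaling (TMM), used in place of scaling by all unique reads, added 0.32 to every log2 ratio and brought that median to -0.01.

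In total 368 unigenes were called higher on day 16 (1.92% of those tested) and 705 lower (3.67%), so 34.3% of the calls were higher. With TMM scaling the split turned, with 544 higher and 252 lower, so that 68.3% of the calls were higher. The number of calls in each direction therefore rested on the scaling. With an assumed coefficient of variation of 0.2 between pools 140 calls were left, 110 higher and 30 lower. Calls also followed depth. None of the 6079 unigenes with fewer than 10 reads was called, against 0.619% of those with 10 to 29 reads and 26.4% of those with 1000 or more. A further 789 unigenes passed the false discovery rate with a log2 ratio under 1 in size, of which 120 lay above 0 and 669 below.

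**Figure D1:**
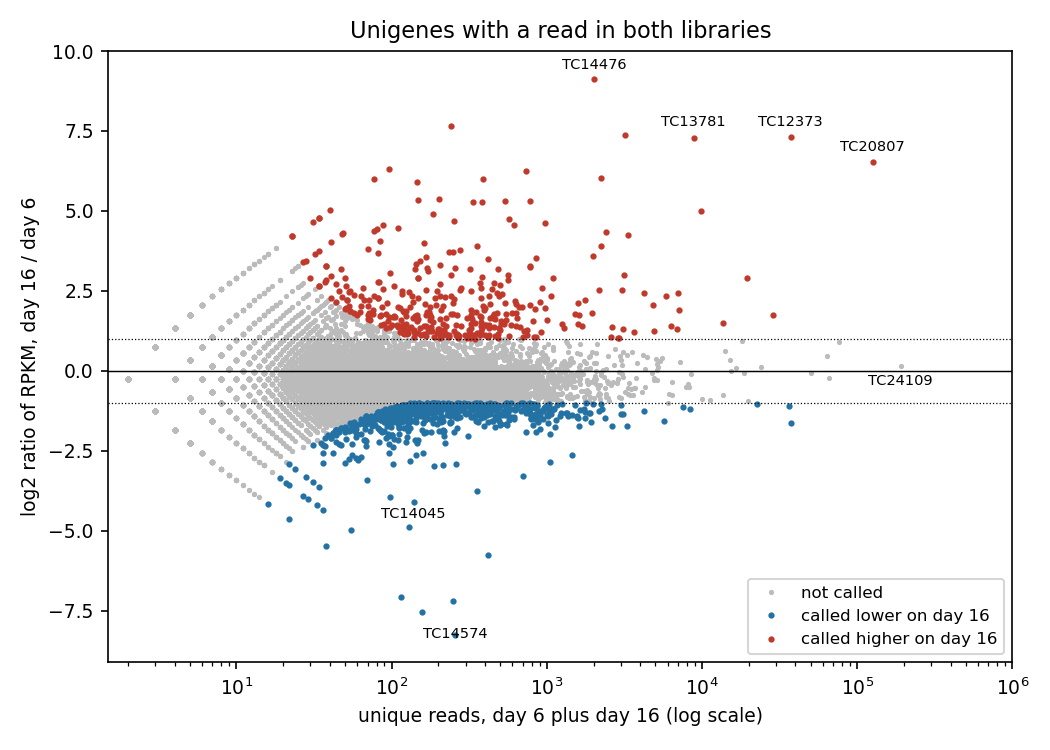
Log2 ratio of RPKM (day 16 over day 6) against the sum of unique reads in both libraries (log scale), for the 16582 unigenes with a read in both. Each point is a unigene, coloured by its call, and dotted lines mark a log2 ratio of 1 in either direction. The highest labelled ratio is 9.14 (TC14476) and the lowest -8.25 (TC14574).

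Names were known for 4157 of the 19198 unigenes. Of these, 126 rose (3.03%) and 75 fell (1.8%). The deposited annotation holds only unigenes whose day 3 RPKM was under 10, and 152 other names came from the study. In the annotation 133 unigenes rose and 5 fell of 6823, and outside it 235 rose and 700 fell of 12375. Names from the annotation are therefore of unigenes that were low on day 3, and lists built on them share that limit. Names from the study, which include most of the ribosomal list and part of the muscle list, do not. The ribosomal list gave 63 of the 75 named unigenes that fell, so the 1.8% mostly reflects that list. Few unigenes in the annotation fell, so 0 lower calls in a list of annotation names says little. The median log2 ratio was -0.08 over 2244 named unigenes with at least 10 reads.

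The values of the other 3 ages place these calls in the time course. Of the 368 unigenes called higher, 321 had their highest RPKM on day 16 and 44 on day 12, and 193 rose in RPKM at each step from day 6 to day 16. Their lowest RPKM was on day 3 in 215 and on day 6 in 100. Of the 705 called lower, 465 had their highest RPKM on day 3, before either library compared here. Of these 705, 466 had their lowest RPKM on day 16 and 209 on day 12. A call higher excludes a highest value on day 6 and a lowest on day 16, and a call lower excludes the reverse. These counts were therefore partly built in, and they were not made over all unigenes. From day 9 to day 12, in libraries not used for the calls, 85.0% of 359 unigenes called higher were higher on day 12, with a median log2 ratio of 0.84. Of 685 unigenes called lower 15.5% were higher on day 12, with a median of -0.42. Of all 11823 unigenes 36.7% were, with a median of -0.20.

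The unigenes named for royal jelly proteins, the main secretion of the nurse gland, held a similar share of the unique reads at both ages. The share was 5.85% on day 6 and 6.60% on day 16, and it had been 13.8% on day 9 and 14.4% on day 12. Of 29 unigenes 1 rose and 1 fell, beside 3.03% and 1.8% of all named unigenes. Over 16 members with at least 10 reads the median log2 ratio was 0.26. Reads shared by several unigenes were not counted, and royal jelly genes resemble each other, so levels of single members are uncertain. By the study's mapping, reads with several matches were a larger part on day 6 than on day 16, and largest on day 9. The shares of the whole list at the different ages are therefore uncertain too.

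The most read of them, major royal jelly protein 2 (mrjp2, TC24109), had 81904 reads and 34027 RPKM on day 6 and 108872 reads and 37832 RPKM on day 16. Its log2 ratio was 0.15 [0.14 to 0.17], and it was the unigene with the highest RPKM in both libraries. It had 150050 reads on day 9 and 172920 on day 12, so both ages compared here lay below the middle of the series. A second mrjp2 unigene, BP540149, had 836 and 1193 reads, with a log2 ratio of 0.26 [0.13 to 0.38]. The value of mrjp7 (TC13222) was 2635 RPKM on day 6 and 3362 RPKM on day 16, a log2 ratio of 0.35 [0.30 to 0.40]. None of the 3 was called. For mrjp7 the study's qRT-PCR gave a much larger difference between these ages than the RPKM here, with the day 16 value higher.

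A pair of members left this pattern, in opposite directions. The unigene named major royal jelly protein 9 (TC12355) rose from 11 reads to 525, or from 3.47 to 138 RPKM, a 39.9-fold difference with a log2 ratio of 5.32 [4.47 to 6.33]. Its reads numbered 3 on day 3, 45 on day 9 and then 213 on day 12, so the day 16 library was the highest of the 5. The unigene named mrjp4 (TC12751) fell from 28 reads to 3, an 11.2-fold difference with a log2 ratio of -3.48 [-5.84 to -1.79]. Its 45 reads on day 9 were the most of any age. At this depth the difference of mrjp3 (TC22893, 9 and 4 reads) and of mrjp1 (TC17816, 7 and 11 reads) was not detectable.

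The yellow family, which shares its ancestry with the royal jelly proteins, was read little. Of 7 unigenes, yellow-h (TC12331) rose from 0 reads to 21, or 5.85-fold with the 0 set to a floor of 3 reads. The exact interval of its log2 ratio began lower, at 2.12. The unigene named yellow-e2 or yellow-e3 (TC14541) fell from 29 reads to 7 with a log2 ratio of -2.31 [-3.74 to -1.09], a call that ended with TMM scaling.

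The list of carbohydrate enzymes of honey making gave some calls higher on day 16, mostly of glucose dehydrogenase. Of 22 unigenes of the list 4 rose and 0 fell, beside 3.03% and 1.8% of all named unigenes, and over the 13 with at least 10 reads the median log2 ratio was 1.26. The list took 0.0138% of the reads on day 6 and 0.0404% on day 16. Glucose dehydrogenase, an oxidoreductase related to glucose oxidase, gave 3 of the calls. The most read of these, TC13216, rose from 38 reads to 347, or from 12.6 to 96.0 RPKM, with a log2 ratio of 2.93 [2.45 to 3.46]. The others, NP9552746 (5 and 45 reads) and TC21807 (8 and 44 reads), had log2 ratios of 2.91 and 2.20.

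An alpha-amylase unigene, DB772014, rose from 0 reads to 18, or 5.02-fold with the 0 set to a floor of 3 reads. The exact interval of its log2 ratio began lower, at 1.88. Amylase cleaves starch and is carried into honey. It had no read on days 3 and 9 and 2 on day 12. The unigene named glucose oxidase or phospholipase (BP539841) had 107 RPKM on day 6 and 113 RPKM on day 16, a log2 ratio of 0.08 [-0.43 to 0.59], and was highest on day 12 with 272 reads. The unigenes named alpha-glucosidase had few reads, with 1 and 13 in TC12359 and 0 and 3 in TC19959, and neither was called. The unigene that the study names glucohydrolase (NP9553382) had 18 and 52 reads. Its log2 ratio was 1.27 [0.48 to 2.13], and it was not called.

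The proteins of the cytosolic ribosome, which carry out translation, were the named group with the most unigenes lower on day 16. Of 78 unigenes 63 fell and 0 rose, beside 1.8% of named unigenes and 3.67% of all. These 63 are most of the 75 named unigenes that fell, so the 1.8% largely repeats them. Over the 70 with at least 10 reads the median log2 ratio was -1.36, beside -0.33 over all unigenes, and each of the 70 lay below 0, from -2.07 to -0.26. Their share of the reads went from 2.78% (42285 reads) to 1.07% (19347 reads). Of the 78, 69 also stand in a ribosome list that was chosen on these libraries by the study, and these hold all 63 calls. Most of these had a day 3 RPKM above the limit of the annotation, so their names came only from the study's lists of differing unigenes. The count of 63 was thus largely set by that choice. Of the 71 unigenes of the study's ribosome list 65 fell, and neither count is independent evidence of the direction.

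The large and the small subunit gave near values. Of 43 unigenes of the large subunit 36 fell, with a median of -1.40 over 39, and of 29 of the small subunit 21 fell, with a median of -1.36 over 25. The 3 unigenes of the stalk, the acidic proteins P0, P1 and P2 that bind translation factors, all fell. Ribosomal protein L7A (TC14117) fell from 2421 reads to 866, or from 1491 to 446 RPKM, a 3.34-fold difference with a log2 ratio of -1.74 [-1.85 to -1.63]. Ribosomal protein L23A (TC12633), which lies at the exit of the peptide tunnel, fell from 1558 to 466 RPKM with a log2 ratio of -1.74 [-1.87 to -1.62].

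Ribosomal protein S6 (TC12663), a target of the kinases downstream of TOR, fell from 2113 reads to 984, or from 1633 to 636 RPKM, with a log2 ratio of -1.36 [-1.47 to -1.25]. Ribosomal protein S25 (TC16433) fell from 1589 to 631 RPKM with a log2 ratio of -1.33 [-1.47 to -1.19]. The lowest ratio with at least 100 reads was that of L10A (TC15317), at -1.92 [-2.36 to -1.50], from 193 reads to 61. Not every member passed. Ribosomal protein S2 (TC12908) had 1068 and 683 reads and a log2 value of -0.90, and S23 (TC15037) had 409 and 253 reads and -0.95. Both lay under the ratio threshold and were not called.

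By age, 69 of the 70 unigenes had their lowest RPKM on day 16, and 48 had their highest on day 9 and 18 on day 6. Relative to day 6 the median stood at -0.22 on day 3 and at 0.08 on day 9. It then went to -0.30 on day 12 and to -1.36 on day 16. Most of these unigenes stand in the study's ribosome list, which was chosen on differences among these libraries. A lowest value on day 16 and these medians were therefore partly built in. Scaling moved the number of calls, to 40 lower with TMM and 46 with the median of ratios, and no ribosomal unigene was called higher under either. The member nearest 0, an S24 unigene (TC15456, 12 reads in each library), lies above 0 with TMM. With an assumed coefficient of variation of 0.2 between pools, 0 of the 63 calls held.

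**Figure D2:**
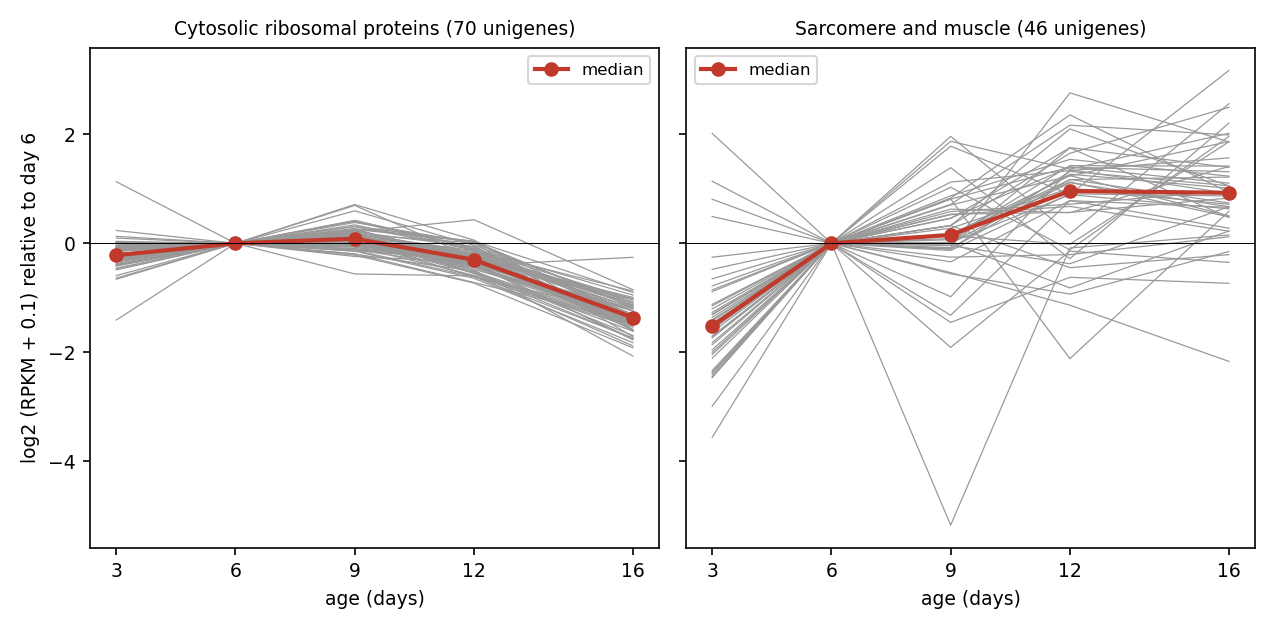
Log2 of RPKM plus 0.1 relative to day 6 against age in days, for ribosomal proteins (left, 70 unigenes) and sarcomere and muscle proteins (right, 46). Grey lines are unigenes and red points are medians, which on day 16 were -1.36 on the left and 0.93 on the right, with 1 library at each age.

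Other steps of making proteins gave few calls. In the list of ribosome biogenesis 1 of 19 unigenes fell and 0 rose. This was BOP1 (TC17720), a factor that processes the RNA of the large subunit, from 77 reads to 23, or from 23.3 to 5.82 RPKM, with an interval of the log2 ratio from -2.74 to -1.31. Translation factors (18 unigenes), aminoacyl-tRNA synthetases (21), mitochondrial ribosomal proteins (12) and proteins of the secretory pathway (8) gave 0 calls. Their medians over members with at least 10 reads were -0.61, -0.44, -0.19 and -0.78. On day 6 these lists held 130, 347, 71 and 34 reads, against 42285 of the ribosomal list. Their names came mostly from the annotation, so members well read on day 3 are missing. Calls followed depth, so the 0 calls do not set these steps apart from the ribosomal proteins. Pre-rRNA-processing protein TSR1-like (NP9553581, 61 and 30 reads) and Midasin (TC13376, 95 and 38 reads), which also serve ribosome assembly, fell with log2 ratios of -1.28 and -1.58, and with TMM scaling the ratio of TSR1-like was -0.96, which ended its call. They stood in no list and were chosen after their values were seen.

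In the signalling of insulin and TOR, which ties growth to nutrition, 1 of 15 unigenes fell and 0 rose. Insulin-like growth factor-binding proteins hold such growth factors outside the cell, and 3 unigenes carried that name. TC14287 fell from 149 reads to 63, or from 40.3 to 14.3 RPKM, with a log2 ratio of -1.50 [-1.95 to -1.07]. TC21952 had 63.7 RPKM on day 6 and 106 RPKM on day 16, a log2 ratio of 0.74 [0.56 to 0.93], which was not called but passed the threshold with TMM scaling. NP9547607 had 7 reads on day 6 and 0 on day 16, which was not called. The 3 unigenes of 1 name thus did not move together.

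The kinases themselves were not called. AKT (TC15907) had 413 and 251 reads and a log2 ratio of -0.98 [-1.21 to -0.75], just under the threshold in size, and S6 kinase (TC15949) had 47 and 35 reads and -0.68 [-1.36 to -0.02]. TOR (TC20981), the kinase at the centre of the pathway, had 97 and 127 reads and 0.13 [-0.26 to 0.53], and raptor (TC13681), its partner, -0.23 [-0.53 to 0.07]. In the 10 unigenes of the study's own TOR list, chosen on these libraries and so not independent evidence, ribosomal protein S6 alone was called. Of these 10, 8 had their highest RPKM on day 3 and 9 their lowest on day 12.

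The proteins of the sarcomere, the contractile unit of muscle, were higher on day 16. Of 53 unigenes 16 rose and 0 fell, beside 3.03% of named unigenes. Over the 46 with at least 10 reads the median log2 ratio was 0.93, beside -0.08 over all named unigenes, and 41 of the 46 lay above 0. Their share of the reads was 0.525% on day 6 and 1.18% on day 16. At the ages in between it was 0.712% (day 9) and 1.28% (day 12), after 0.186% on day 3. Of the 53, 14 also belong to the M group that the study chose on these libraries, with 8 of the 16 calls. In the list 2 members had no read on day 6 and none lacked reads on day 16. What part muscle tissue taken with the glands has in this difference was not tested.

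The giant proteins of the sarcomere, with unigenes named myosin light chain kinase counted among them, gave most of the calls, with 9 of 23 unigenes. The titin unigene NP9553226 rose from 41 reads to 446 with a log2 value of 3.17, the highest of the list with at least 10 reads. Muscle M-line assembly protein unc-89 (NP9550883) rose from 31.8 to 84.7 RPKM with a log2 ratio of 1.41 [1.25 to 1.58]. Stretchin-Mlck (NP9550064) rose from 1295 reads to 3641, or from 71.4 to 168 RPKM, with a log2 ratio of 1.23 [1.14 to 1.33]. Other titin unigenes were not called, among them TC22830 with 145 and 246 reads and a log2 ratio of 0.50 [0.20 to 0.81].

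In the thick filament paramyosin (TC14580), which forms its core in insects, rose from 1740 reads to 5172, or from 367 to 914 RPKM, with a log2 ratio of 1.31 [1.24 to 1.39]. Myosin regulatory light chain 2 (TC15188) rose from 414 to 834 RPKM with a log2 ratio of 1.01 [0.89 to 1.13]. Myosin heavy chain 1 (TC22963), the motor itself, had 261 and 366 RPKM and a log2 ratio of 0.49 [0.17 to 0.80], which was not called.

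In the thin filament tropomyosin-1 (TC13807) rose from 376 to 782 RPKM with a log2 ratio of 1.06 [0.93 to 1.18]. Troponin I (TC24102), which holds the filament off, rose from 97 reads to 310 with a log2 ratio of 1.42 [1.09 to 1.76]. Troponin T (NP1608872), which anchors the complex to tropomyosin, had 495 and 789 RPKM and a log2 ratio of 0.67 [0.56 to 0.79]. The actin unigene TC12464 had 256 and 345 RPKM and 0.43 [0.29 to 0.56]. Neither was called, so the filament's parts gave unequal ratios. The study's qRT-PCR gave larger differences between these ages than the RPKM for actin TC12464, myosin heavy chain TC22963 and titin TC22830.

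Among regulators of muscle, muscle-specific protein 20 (TC12842) rose from 121 reads to 575, or from 52.0 to 207 RPKM, a 3.97-fold difference with a log2 ratio of 1.99 [1.71 to 2.29]. Muscle LIM protein Mlp84B-like (TC20289), a Z-disc protein, rose from 152 reads to 478 with a log2 ratio of 1.40 [1.13 to 1.67]. For TC12842 and TC20289 the study's qRT-PCR gave much larger differences between these ages than the RPKM, with the day 16 values higher. Of the 46 unigenes, 23 had their highest RPKM on day 12 and 16 on day 16, and 37 had their lowest on day 3. Most of their names came from the annotation, which holds only unigenes low on day 3, and others from the M group chosen on these libraries. A lowest value on day 3 was therefore partly built in. With TMM scaling 21 unigenes were called higher, and with an assumed coefficient of variation of 0.2 between pools 1 was.

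The study's M group, 29 unigenes it chose on these libraries, many of them of muscle and royal jelly, gave 14 higher and 0 lower calls. Its highest ratio was that of the fau protein (TC15638), from 70 reads to 419 and with a log2 ratio of 2.32 [1.96 to 2.71]. In the study's R group, 24 unigenes chosen in the same way, 4 fell and 1 rose. With TMM, the median of ratios, clean reads or the total without the 10 most read unigenes 2 fell and 1 rose. The group's direction is not independent evidence for either list.

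The R group held the lowest called ratios of named unigenes with at least 100 reads. TC14045 fell from 130 reads to 9, or from 17.3 to 0.999 RPKM, a 17.3-fold difference with a log2 ratio of -4.11 [-5.27 to -3.14]. Day 3 gave it 679 reads, day 9 gave 8 and day 12 gave 4, so most of its fall came before day 9. It carries a pair of names in the study's lists, a fibril-forming collagen alpha chain-like protein of the extracellular matrix and a protein of chromosome cohesion, and which is right was not tested. An ionotropic glutamate receptor unigene (TC15827), a channel opened by glutamate, fell from 26.1 to 4.43 RPKM with a log2 ratio of -2.56 [-3.21 to -1.95]. A second unigene of that name, DB752140, had 26 and 12 reads and -1.37 [-2.49 to -0.34], and was not called.

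Among enzymes that alter hormones, pigments and foreign compounds, single unigenes rose by large factors. Cytochrome P450 enzymes oxidise fatty acids, hormones and toxins. Of 26 P450 unigenes 7 rose and 0 fell, beside 3.03% and 1.8% of all named unigenes. Their median log2 ratio was 1.64 over 16 with at least 10 reads, beside -0.08 over all named unigenes and -0.33 over all. In the annotation, the source of these names, 5 of 6823 unigenes fell. A count of 0 lower therefore says little, here and in the enzyme lists below. The highest was P450 6AS5 unigene TC16088, from 4 reads to 197, or from 1.50 to 61.8 RPKM, with a log2 ratio of 5.36 [3.99 to 7.25]. Cytochrome P450 9e2 (TC19658) rose from 6.29 to 50.1 RPKM with a log2 ratio of 2.99 [2.37 to 3.68]. Cytochrome P450 4G11 (TC12371) rose from 23 reads to 109 with a log2 ratio of 1.99 [1.33 to 2.70]. The fly enzymes of the 4G group make the hydrocarbons of the cuticle.

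Glutathione and UDP transferases, which attach a soluble group to hormones and toxins, gave 4 calls higher of 10 unigenes and 0 lower, against the same background. Ecdysteroid UDP-glucosyltransferase, which in other insects inactivates the moulting hormone, had 2 of them. TC16552 rose from 16 reads to 762, or from 6.70 to 267 RPKM, a 39.8-fold difference with a log2 ratio of 5.32 [4.61 to 6.13]. It had 48 reads on day 9 and 390 on day 12. TC14495 rose from 21 reads to 83 with a log2 ratio of 1.73 [1.02 to 2.49]. These are also the 2 calls of the 11 unigenes of juvenile hormone and ecdysone, in which juvenile hormone esterase (TC12340) had 4.46 and 8.25 RPKM and a log2 ratio of 0.89 [-0.06 to 1.91].

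Of 24 esterases and lipases 4 rose and 0 fell, beside 3.03% and 1.8% of all named unigenes. A carboxylesterase (TC14308), an enzyme that splits esters, rose from 19 reads to 337 with a log2 ratio of 3.89 [3.23 to 4.64]. Of 21 unigenes of fatty acid synthesis and elongation 4 also rose and 0 fell. Fatty acyl-CoA reductase 1 (TC14207), which makes fatty alcohols, rose from 18.2 to 107 RPKM with a log2 ratio of 2.56 [2.15 to 2.99]. An elongase of very long chain fatty acids (TC14076) rose from 15 reads to 134 with a log2 ratio of 2.90 [2.13 to 3.78]. Oxidation of fatty acids (6 unigenes), glycolysis (7) and oxidative phosphorylation (15) gave 0 calls. These lists held 43, 34 and 121 reads on day 6, so 0 calls says little of them.

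**Figure D3:**
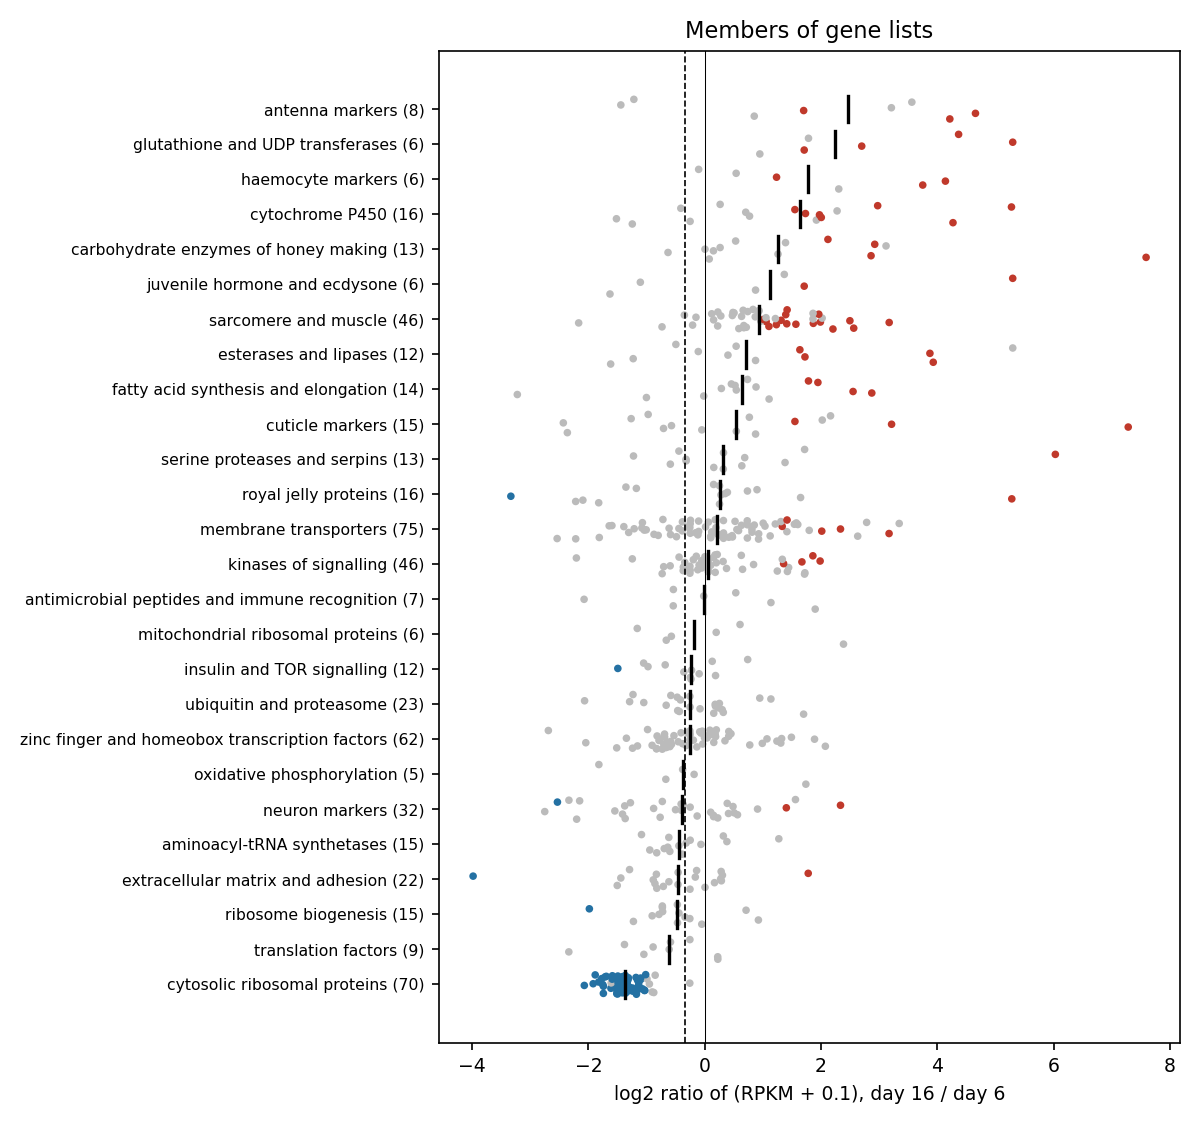
Log2 ratio of RPKM plus 0.1 (day 16 over day 6) of the members of each search-word list with at least 5 members of at least 10 reads, with the number drawn in brackets. Points are unigenes, red where called higher, blue where called lower and grey where not called. Black bars are list medians and the dashed line is the median of all unigenes, -0.33, with ribosomal proteins at -1.36 and antenna markers at 2.46.

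The named unigenes with the most reads among the 10 highest ratios were enzymes. The unigene named laccase 2 (TC13781), a copper oxidase that tans the insect cuticle, rose from 47 reads to 8797, or from 14.6 to 2285 RPKM. This was a 157-fold difference with a log2 ratio of 7.29 [6.88 to 7.74], and its other libraries gave 25 reads (day 3), 407 (day 9) and 2207 (day 12). Plasma kallikrein (TC14919), a name from vertebrates for a serine protease of the blood, rose from 28 reads to 2203, or from 11.4 to 747 RPKM, with a log2 ratio of 6.04 [5.50 to 6.63]. It was the 1 call among 27 serine proteases and serpins.

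The highest ratio of a named unigene was that of the venom acid phosphatase precursor TC14476, an enzyme known as an allergen of bee venom. It rose from 3 reads to 2022, or from 1.04 to 587 RPKM, with a log2 ratio of 9.14 [7.59 to 11.42]. It stood at 7.42 RPKM on day 9 and 71.4 RPKM on day 12, so it was higher at each step from day 6 to day 16. In all, 7 unigenes carried acid phosphatase in their names, a set chosen after its values were seen, and 4 rose and 0 fell. The other called members were TC12438 (1 and 76 reads), TC18058 (8 and 153 reads) and TC24160 (2 and 30 reads).

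Further unigenes of the 10 highest had names that say little of their role in the gland. Chondroadherin-like protein, a leucine-rich protein of cartilage in vertebrates, was the name of TC15743 (5 and 382 reads) and TC20607 (2 and 143 reads), with log2 ratios of 6.00 and 5.90. The unigene similar to CG7367-PA (TC16189), a fly gene model, rose from 8 reads to 724 with a log2 ratio of 6.24 [5.26 to 7.46]. The unigene named Circadian clock-controlled protein (TC14824) rose from 2.57 to 101 RPKM with a log2 ratio of 5.29 [4.30 to 6.52]. It was the 1 call among 7 unigenes of the clock list.

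**Figure D4:**
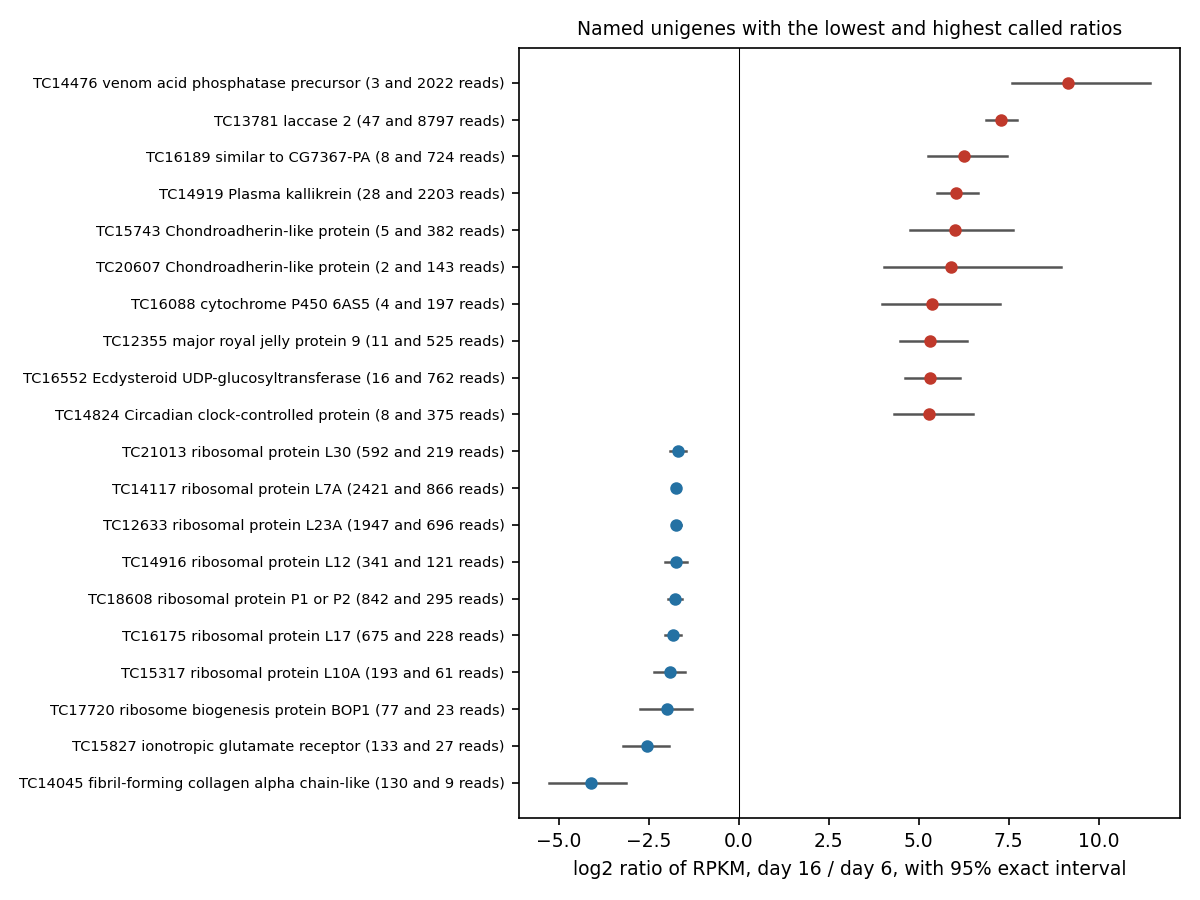
Log2 ratio of RPKM (day 16 over day 6) with its 95% exact interval for the 10 highest and 10 lowest called ratios among named unigenes with at least 100 reads over both libraries. Reads on day 6 and day 16 stand beside each name. The ratios run from -4.11 (TC14045) to 9.14 (TC14476), and 7 of the 10 lowest are ribosomal proteins.

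Of the 201 named unigenes called, 59 higher and 4 lower stood in no list. The following were chosen from them after their values were seen. Hyaluronidase (TC20544), which splits hyaluronic acid and is also a venom enzyme, rose from 17 reads to 551 with a log2 ratio of 4.76 [4.07 to 5.55]. An alpha-tocopherol transfer protein-like unigene (TC22318), of a family that carries lipids, rose from 7 reads to 328 with a log2 ratio of 5.29 [4.23 to 6.62]. Kynurenine/alpha-aminoadipate aminotransferase (NP9552306), an enzyme of tryptophan breakdown, rose from 14 reads to 220 with a log2 ratio of 3.72 [2.94 to 4.61].

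Glucose-6-phosphate dehydrogenase (TC14658), which makes NADPH, rose from 37 reads to 142 with a log2 ratio of 1.68 [1.15 to 2.25]. Phosphoenolpyruvate carboxykinase (TC15769), an enzyme of glucose synthesis, rose from 23 reads to 101 with a log2 ratio of 1.88 [1.21 to 2.60]. Kruppel-like protein 1 (TC12391), a transcription factor, rose from 29 reads to 117 with a log2 ratio of 1.75 [1.16 to 2.39]. Sarcalumenin (TC22616), a calcium-binding protein of muscle, rose from 72 reads to 192 with a log2 ratio of 1.16 [0.76 to 1.57].

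Of 85 signalling kinases 4 rose and 0 fell, and of 131 membrane transporters 5 rose and 0 fell, or 10 with TMM scaling. These counts stand near the 3.03% of all named unigenes that rose. ABC transporter G family member 20 (TC15513), of a family that exports lipids, rose from 33.5 to 84.5 RPKM with a log2 ratio of 1.34 [1.04 to 1.64]. The lists of zinc finger and homeobox factors (119 unigenes), ubiquitin and proteasome (49), heat shock proteins (12), antimicrobial peptides (8) and apoptosis and autophagy (7) gave 0 calls. With TMM scaling 2 unigenes of the first list and 1 antimicrobial unigene were called higher. The heat shock, antimicrobial and apoptosis lists held 37, 102 and 55 reads on day 6, too few for 0 calls to say much. No named unigene matched the list of histones. Of 37 unigenes of extracellular matrix and adhesion, laminin alpha (TC18871), a protein of the basement membrane, rose from 23 reads to 98 and TC14045 fell.

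Markers of other cell types were counted in the same way, beside the 3.03% of named unigenes that rose and 1.8% that fell. Few unigenes in the annotation fell (5 of 6823), so a count of 0 lower says little here too. Of 23 antenna markers 3 rose and 0 fell, and their reads went from 0.00645% to 0.0267% of the library, with 3 at 0 reads on day 6 and 5 on day 16. The 3 were odorant binding proteins, small carriers also found outside the antenna. Odorant binding protein 16 (TC12570) rose from 8 reads to 244 with a log2 ratio of 4.67 [3.67 to 5.90]. Odorant binding protein 4 (TC13645) rose from 29 reads to 113 with a log2 ratio of 1.70 [1.11 to 2.35], and odorant binding protein 20 (DB764488) from 2 reads to 46. The odorant receptor unigenes with the most reads on day 16, NP9547299 (0 and 6 reads) and TC24283 (8 and 4 reads), were not called.

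Of 33 cuticle markers 3 rose and 0 fell, again beside 3.03% of named unigenes, and their reads went from 0.0246% to 0.525%. Laccase 2 gave 8797 of their 9531 reads on day 16. Besides laccase 2 these were Endochitinase (TC20330, 112 and 395 reads) and Flexible cuticle protein 12 (TC15457, 14 and 156 reads). Of 8 unigenes in the haemocyte list 3 rose and 0 fell, and their share went from 0.0110% to 0.0348%. Hemocytin (TC15331), a clotting protein of blood cells, rose from 65 reads to 186 with a log2 ratio of 1.26 [0.84 to 1.69]. The other calls were scavenger receptors, NP9553348 (16 and 261 reads) and NP9553432 (2 and 47 reads), beside 632 reads of the whole list on day 16. That name is not particular to haemocytes, so the share of the list does not measure blood cells.

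Of 69 neuron markers 2 rose and 1 fell, near the shares of all named unigenes (3.03% and 1.8%), and their share was 0.0433% on day 6 and 0.0358% on day 16. A dopamine transporter unigene (TC12374), which clears dopamine from synapses, rose from 19 reads to 116 with a log2 ratio of 2.35 [1.64 to 3.14]. Of 6 fat body markers and 4 photoreceptor markers 0 were called. Their shares were 0.00191% and 0.00165% for fat body and 0.000922% and 0.000661% for photoreceptors, on day 6 and day 16, and Vitellogenin (TC23352) had 2 reads and then 0. The part of these tissues in the other results was not tested.

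Large changes in the share of reads also lay in unigenes without a name. TC20807 rose from 1121 reads to 124345, or from 292 to 27048 RPKM, a 92.8-fold difference with a log2 ratio of 6.54 [6.45 to 6.62]. TC12373 rose from 194 reads to 37075, or from 64.3 to 10271 RPKM, a 160-fold difference with a log2 ratio of 7.32 [7.12 to 7.53]. Together they took 0.0866% of the reads on day 6 and 8.89% on day 16. At the other ages they took 0.0769% (day 3), 0.274% (day 9) and 2.89% (day 12). From day 6 to day 9 TC20807 went from 292 to 1038 RPKM and TC12373 from 64.3 to 57.9 RPKM.

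In the other direction TC12375 fell from 27049 reads to 10506, or from 10880 to 3535 RPKM, with a log2 ratio of -1.62 [-1.65 to -1.59]. TC20120 fell from 11428 to 5530 RPKM with a log2 ratio of -1.05 [-1.09 to -1.01], a call that ended with TMM scaling. Other unigenes among the 10 highest in RPKM were not called, with log2 ratios from -0.96 for TC24306 (18984 and 9757 RPKM) to 0.94 for TC16893 (3539 and 6772 RPKM). With TMM scaling TC16893 and TC12344 were called higher. TC20841 had 20968 and 19986 RPKM and a log2 ratio of -0.07 [-0.09 to -0.04].

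By ratio, the unnamed unigenes at the ends with at least 100 reads were TC14574, TC19246, TC17549 and TC22116. TC14574 fell from 255 reads to 1, with a log2 ratio of -8.25 [-13.56 to -5.76], and had 452 reads on day 3 and 0 on day 9. TC19246 fell from 155 reads to 1, with a log2 ratio of -7.53 [-12.85 to -5.03], and had 42 reads on day 12. TC22116 rose from 1 read to 241 with a log2 ratio of 7.66 [5.16 to 12.96]. TC17549 rose from 16 reads to 3184, or from 20.8 to 3459 RPKM, with a log2 ratio of 7.38 [6.68 to 8.19]. Their wide intervals come from the 1 or few reads in one library.

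Unigenes read in a single library carried few of the calls. Of 1413 with reads on day 16 alone 5 were called, and of 1203 with reads on day 6 alone 10 were called, and in both sets the median was 1 read. The unigenes called higher had a median length of 1166 bases, those called lower 730 and all 611. Longer unigenes collect more reads, and what part length or RNA integrity has in the calls was not tested.

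**Figure D5:**
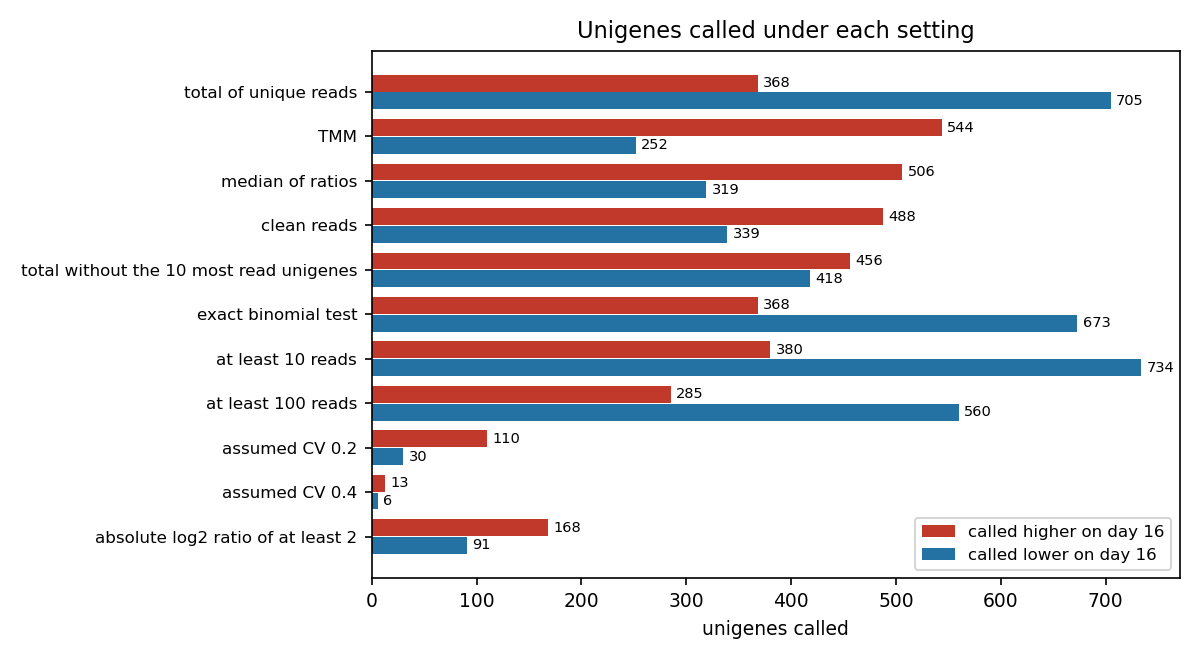
Number of unigenes called higher (red) and lower (blue) on day 16 under each setting, from the total of unique reads (368 and 705) down to an absolute log2 ratio of at least 2 (168 and 91). Bars start at 0 and give the counts beside them.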

How the data were processed

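The HGs of 30 pooled workers were sequenced at each of 5 ages, and the day 16 and day 6 libraries were compared here, with groups taken from the age in the labels. The authors mapped clean reads to unigenes with SOAP2 (version not given in the sources used here), allowing at most 2 mismatches. They deposited the count of reads matching each unigene alone, the RPKM made from it, and the coverage, the fraction of unigene length that unique reads cover, in percent. The count served for tests and intervals and the RPKM for ratios, and coverage was left out of the tests. No genome coordinates are given.

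The 2 counts of each unigene, where at least 1 was above 0, went into the two-sided test of Audic and Claverie, with Benjamini-Hochberg adjustment over all unigenes. The thresholds, a false discovery rate of 0.001 and an absolute log2 ratio of 1, are those of the study's methods, and the test was chosen here and checked on simulated data. Intervals are 95% Clopper-Pearson intervals, and a count of 0 was set to a floor of 3 reads in that library for a fold. List medians add 0.1 to the RPKM before the log2 and take members whose reads number 10 or more over both libraries. The lists are 36 sets of search words on names, trimmed on names, and 4 lists of the study. Members and lists were chosen with earlier results of these data known.

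Unigenes were named by rule: those the study names in the groups described, the 10 highest and 10 lowest called ratios among those with a name and 100 or more reads, the 10 highest RPKM per library, the 3 most read members of a list and up to 6 called ones, and the 2 unnamed unigenes at each end. Exceptions are stated. A few members of the ribosomal, muscle and marker lists named as not called were also chosen after their values were seen. Names that fit several genes are given as such.

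Alternatives were TMM factors (edgeR 4.0.16), the median of ratios (DESeq2 1.42.0), clean reads, a total without the 10 most read unigenes, an exact binomial test, minimums of 10 and 100 reads, edgeR's exact test with an assumed coefficient of variation of 0.2 or 0.4, and an absolute log2 ratio of 2. R 4.3.3, Python 3.11.15 and SciPy 1.17.1 were used.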

Additional observations from a re-analysis of the deposited data

How the results depend on the processing

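With 1 library per age no replicate could be left out, and the calls carry counting error alone. No paired analysis was possible because each age has 1 library. Other scalings left fewer unigenes called lower on day 16 than the 705 of the total of unique reads, with 252 by TMM, 319 by the median of ratios, 339 by clean reads and 418 by the total without the 10 most read unigenes. Higher calls were then 544, 506, 488 and 456, against 368. With an assumed coefficient of variation of 0.2 between pools 140 unigenes were called, 110 higher and 30 lower, and with 0.4 there were 19, 13 higher and 6 lower. At an absolute log2 ratio of at least 2 there were 259, 168 higher and 91 lower. The exact binomial test gave 1041 calls, and minimums of 10 and 100 reads 1114 and 845.

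Of 281 unigenes the text could name 148 were called, 31 with a coefficient of variation of 0.2 and 14 with 0.4. TMM ended 29 of these calls and added 7, and no call changed direction under TMM, the median of ratios, clean reads or the assumed coefficients of variation, the settings run for them. Among the 37 lists with at least 3 members of 10 or more reads, 25 had a median above that of all unigenes, and 25 did so with TMM and 26 with a pseudocount of 1. With at least 50 reads it was 17 of 23 lists and with no minimum 25 of 39.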
